A study of Mus musculus with 8 samples.

Results

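The array design carries 60-base probes for intergenic noncoding RNA loci, each named only by a genomic interval and a strand. A probe was counted among them when it was no control spot and its name gave a chromosome, a start and an end in mouse build mm9, followed by F (forward) or R (reverse). Of 56605 probes on each array, 4449 met this rule, and all 4449 are described as lincRNA (long intergenic noncoding RNA) in the files. They carry 4061 names over 3229 intervals, of which 832 have probes on both strands, and overlapping intervals merge into 2149 loci. The rule used no measured signal.

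The RNA came from soleus, a slow postural muscle of the calf. All mice were male C57BL/6J, 8 weeks old at the start and 14 weeks old at sampling, and all ate a high-fat diet. For 6 weeks one group received Porphyromonas gingivalis, a bacterium of periodontal disease, by feeding needle in 100 µL of saline, and the other received saline alone. Each group has 4 arrays. Since no label states that every array holds RNA of its own animal, the p-values reflect the scatter among the arrays, which may be technical. All arrays were on 1 slide, the P. gingivalis ones in one row and the saline ones in the other, and an effect of the row cannot be told apart from one of the group.

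Long intergenic noncoding RNAs are transcribed by RNA polymerase II from regions between protein-coding genes, and many were first recognised by histone marks of active promoters and transcribed bodies. Most are less abundant than mRNAs and vary more between tissues. Many are retained in the nucleus, some act as scaffolds for chromatin or RNA-binding proteins, and many are trimmed or degraded by the nuclear RNA exosome. In skeletal muscle, members of this class are known for roles in myoblast differentiation. Transcripts running in opposite directions across one interval are common at promoters and enhancers.

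Probes of this class differ in base composition and in how far they resemble other transcripts, and the sequences below show the kinds the results turn on. The first pair were the 2 that passed the test between the groups, shown in lower case throughout.
chr13:108653722-108654406, reverse: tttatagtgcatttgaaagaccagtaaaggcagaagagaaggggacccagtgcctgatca
chrX:98673447-98673874, forward: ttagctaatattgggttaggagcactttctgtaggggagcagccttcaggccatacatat
The next pair lie on the 2 strands of one chromosome 17 interval and were both lower on the P. gingivalis arrays without passing the test.
chr17:56687541-56694616, forward: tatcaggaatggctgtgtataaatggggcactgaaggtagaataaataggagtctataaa
chr17:56687541-56694616, reverse: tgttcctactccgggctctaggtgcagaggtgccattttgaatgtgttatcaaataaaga
The following 4 form 2 pairs whose opposite-strand probes overlap, with the shared, complementary bases in capitals. In each pair 1 strand gave signal on all 8 arrays and the other on none.
chr4:53312709-53355184, forward: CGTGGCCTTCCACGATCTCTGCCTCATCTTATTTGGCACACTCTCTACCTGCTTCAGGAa
chr4:53312709-53355184, reverse: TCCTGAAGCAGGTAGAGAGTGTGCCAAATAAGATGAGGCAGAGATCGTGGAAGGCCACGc
chr19:61177675-61219875, forward: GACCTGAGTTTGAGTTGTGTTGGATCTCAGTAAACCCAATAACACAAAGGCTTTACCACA
chr19:61177675-61219875, reverse: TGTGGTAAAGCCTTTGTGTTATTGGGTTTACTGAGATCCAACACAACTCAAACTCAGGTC
Among the 10 brightest probes of the class, the next 3 are rich in C, with runs of 4 or more C in capitals.
chr14:78924115-78938125, forward: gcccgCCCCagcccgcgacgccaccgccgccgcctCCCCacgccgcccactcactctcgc
chr12:73838608-73862621, reverse: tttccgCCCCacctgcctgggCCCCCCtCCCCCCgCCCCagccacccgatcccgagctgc
chr6:83368261-83407280, forward: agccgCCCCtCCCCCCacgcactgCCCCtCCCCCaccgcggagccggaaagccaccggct
The brightest of all holds less G and C, 36.7%, with its runs of 4 or more C marked in the same way.
chr4:141527564-141547339, forward: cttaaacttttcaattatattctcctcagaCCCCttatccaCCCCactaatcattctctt

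The values below are log2 spot signals relative to each array's 75th percentile over non-control spots, so 0 is the level of that percentile. A probe was called detected when it was well above background, by the scanner software's own flag, on 4 or more of the 8 arrays. By this rule 2319 of the 4449 intergenic locus probes (52.1%) were detected, and 1795 (40.3%) were well above background on all 8 arrays. On none of the arrays were 1367 (30.7%) above background. Among the other 52156 probes, 60.3% were detected. These include 29638 probes for RefSeq mRNAs, of which 71.3% were detected, and 2477 for RefSeq noncoding transcripts, of which 39.3% were. The class therefore stood between RefSeq noncoding and mRNA probes in the share detected.

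**Figure D1:**
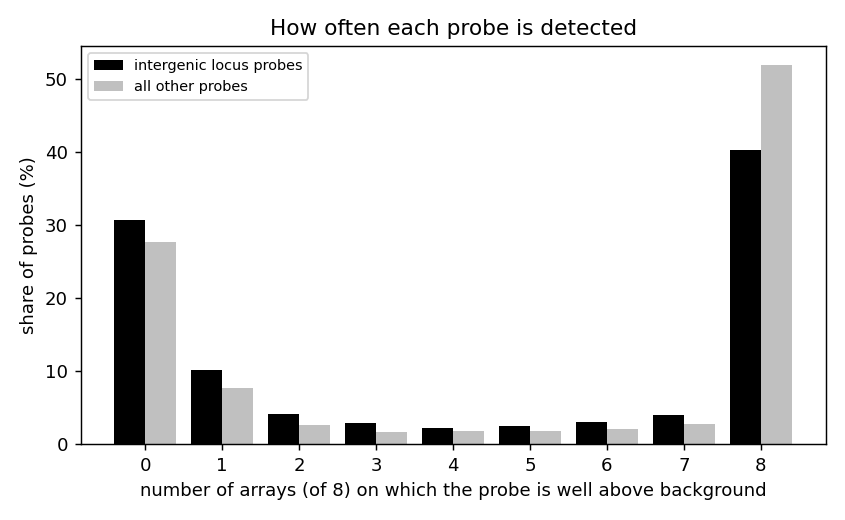
Share of intergenic locus probes (black bars) and of all other probes (grey bars), in percent, against the number of the 8 arrays on which each probe was well above background. Both distributions are two-ended, with 30.7% of the intergenic locus probes on no array and 40.3% on all 8, against 27.7% and 51.9% of the others.

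Signals of the class were low. Only 352 of the 4449 probes (7.91%) had a mean above the arrays' 75th percentile, against 22.9% of the other probes, and the median over detected probes was -2.87, against -1.14. A probe's brightness also depends on its bases, so no order of RNA amounts between loci was read from it. The median SD between replicate arrays was 0.184 for saline and 0.192 for P. gingivalis over detected intergenic locus probes, against 0.138 and 0.135 for the other detected probes.

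Array by array, the number of intergenic locus probes well above background was 2142, 2232, 1924 and 2338 for saline and 2499, 2479, 2450 and 2503 for P. gingivalis. Every P. gingivalis array had more than every saline array, and the groups averaged 2482.8 ± 24.2 and 2159.0 ± 176 (SD, n = 4 each). The other probes moved the same way, with 54.2 to 60.9% above background on saline arrays and 62.1 to 63.0% on P. gingivalis arrays. Saline array 3 was lowest for both. The scanner software's extraction status was 1 for P. gingivalis array 2 and 0 for every other array, and its bearing on the values was not tested. The lowest signal that counted as above background lay between -5.23 and -4.49 on saline arrays and between -5.66 and -5.43 on P. gingivalis arrays, so the threshold itself was lower on the P. gingivalis row. Its part in the count was not tested.

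**Figure D2:**
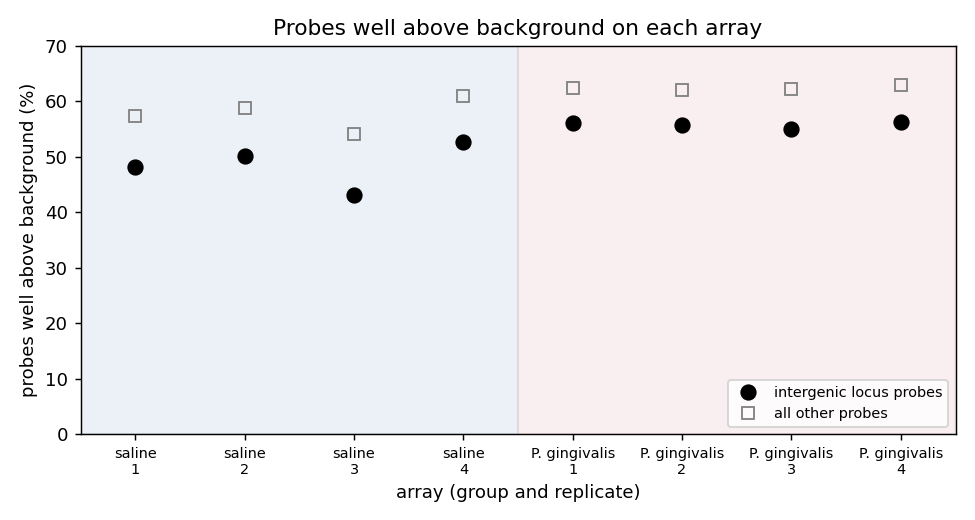
Percentage of probes well above background on each of the 8 arrays, for intergenic locus probes (filled circles) and all other probes (open squares), with saline arrays on the left and P. gingivalis arrays on the right. Intergenic locus probes ranged from 43.2 to 52.6% on saline arrays and from 55.1 to 56.3% on P. gingivalis arrays.

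Detection rose with the G and C content of the probe. Of 73 intergenic locus probes with at most 30% G and C, 21.9% were detected. The share was 48.6% of 1966 probes between 40 and 45%, 69.0% of 738 between 50 and 55%, and 72 of 80 above 65%. The other probes followed the same course from 31.0 to 84.7%, but stayed above the intergenic locus probes in every bin up to 60%. Intergenic locus probes held slightly more G and C, with a median of 45% against 41.7%. C-rich probes were common among the brightest: 5 of the 10 brightest held over 65% G and C, against 1.8% of the whole class. A run of 5 or more C (read on the probe strand alone) was present in 145 of the intergenic locus probes, 3.26%, and in 2.24% of the others. Of the 145, 80.7% were detected, and of the 1168 other probes with such a run, 81.3%.

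**Figure D3:**
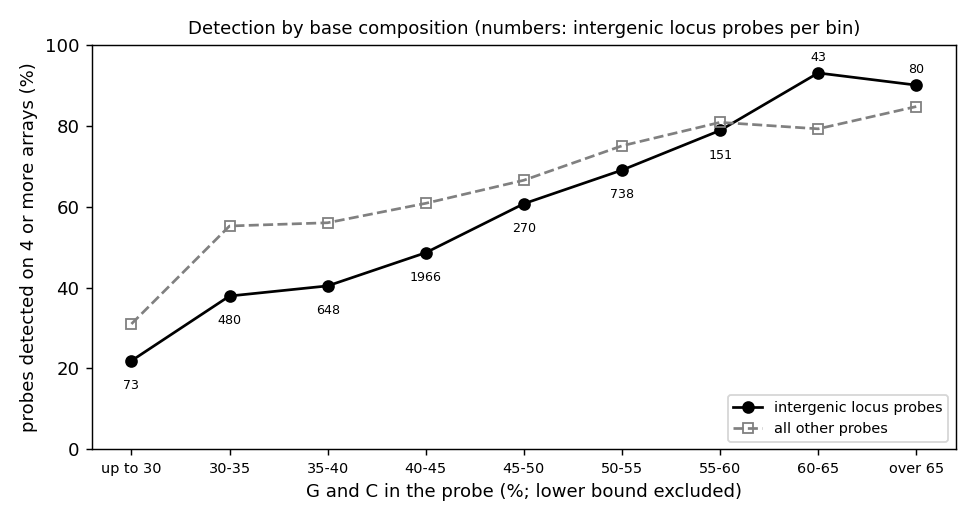
Percentage of probes detected on 4 or more arrays against the percentage of G and C in the probe, for intergenic locus probes (filled circles, number of probes beside each) and all other probes (open squares). Detection of the intergenic locus probes climbs from 21.9% at up to 30% G and C to 93.0% between 60 and 65%.

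Detection by position ranged from 38.5% of 174 probes on chromosome X and 44.8% of 261 on chromosome 13 to 60.1% of 278 on chromosome 2 and 60.2% of 249 on chromosome 17. Probes of longer intervals were detected more often, from 41.0% of 485 in intervals of up to 500 bases to 60.8% of 500 in intervals over 50000 bases. Intervals that held a probe for another transcript, by the files' own mm9 positions, had 56.6% of 1133 probes detected, and those more than 100000 bases from any such probe 46.2% of 156.

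At 354 of the 832 intervals probed on both strands (42.5%), signal was detected on 1 strand alone, 157 times the forward and 197 times the reverse. Both strands were detected at 312 (37.5%) and neither at 166 (20.0%). Probes of one interval can lie far apart, so 158 pairs of opposite-strand probes that overlap by at least 30 bases give a closer view. Of these, 59 (37.3%) were detected on 1 strand, 46 (29.1%) on both and 53 (33.5%) on neither. In 24 pairs 1 probe was above background on all 8 arrays and its complement on none.

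The chromosome 4 pair printed above shares 59 bases. Its forward probe read -3.94, -4.18, -3.90 and -3.29 on saline arrays and -3.69, -3.26, -3.55 and -3.40 on P. gingivalis arrays. Its reverse probe lay between -7.91 and -6.74 and was never above background. The chromosome 19 pair shares all 60 bases, and there the reverse probe was the one above background, at -3.74, -2.94, -3.05 and -3.37 in saline and -3.67, -3.08, -3.28 and -3.28 in P. gingivalis. The forward probe stayed between -7.88 and -6.66. The 2 probes of each complementary pair have nearly the same G and C content, 51.7 and 53.3% on chromosome 4 and 41.7% for both on chromosome 19.

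Some probes named for intergenic loci share bases with probes for annotated transcripts. A run of 25 or more identical bases on the same strand as another probe was found for 20 of them, 15 of which were detected. The examples below carry the shared run in capitals, and their signal cannot be assigned to the intergenic locus alone.
chr7:108209996-108216032, reverse, shared with Rps29: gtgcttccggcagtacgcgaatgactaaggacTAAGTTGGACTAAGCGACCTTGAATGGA
chr5:96591892-96606467, forward, shared with Ifitm3: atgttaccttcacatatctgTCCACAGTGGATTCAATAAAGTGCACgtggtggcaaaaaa
Rps29 encodes a ribosomal protein of the small subunit. Its probe and the chromosome 7 member, which share 28 bases, differed between groups by 0.06 and 0.10. Ifitm3 encodes an interferon-induced membrane protein, and its probe differed by -0.15, against -0.05 for the chromosome 5 member, with 26 shared bases. The member at chr8:27133090-27133734, reverse strand, carries the same 60 bases as a probe for Hook3, a microtubule-binding adaptor, and the 2 copies read differences of 0.29 and 0.39. Another 46 members share such a run with a probe on the opposite strand.

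Hairpins of 3 microRNAs from the RefSeq table (GRCm38.p6) share 25 or more bases with an intergenic locus probe on the same strand. Mature microRNAs are much shorter than these probes, and which transcript gave the signal was not tested. The shared run is in capitals.
chr15:85412264-85549139, forward, Mirlet7c-2: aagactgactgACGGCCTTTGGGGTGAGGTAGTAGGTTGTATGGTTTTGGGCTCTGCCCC
chr8:91471819-91551119, forward, Mir8110: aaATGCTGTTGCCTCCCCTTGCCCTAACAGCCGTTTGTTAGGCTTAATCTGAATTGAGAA
chrX:50087925-50101700, reverse, Mir363: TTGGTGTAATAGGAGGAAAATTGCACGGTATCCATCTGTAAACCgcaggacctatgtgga
The first holds the whole of the mature let-7c-5p, a microRNA that rises as cells differentiate, shown with its seed (bases 2 to 8) in capitals.
mmu-let-7c-5p: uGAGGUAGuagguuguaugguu
The let-7c-2 probe was above background on 6 arrays, at -4.34, -4.30, -4.72 and -5.14 in saline and -4.49, -4.48, -4.62 and -4.58 in P. gingivalis. The Mir8110 probe was above background on all 8, at -0.77, -0.95, -0.87 and -1.06 in saline and -0.63, -0.85, -1.05 and -0.92 in P. gingivalis, and the Mir363 probe on none. Neither measured probe separated the groups, with differences of 0.08 (SE 0.18, limma adjusted p = 0.826) and 0.05 (SE 0.10, adjusted p = 0.814).

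Promoter windows of RefSeq genes, from 250 bases before to 50 after the start, hold 53 of the intergenic locus probes in full (GRCm38.p6). In 25 of them the probe runs in the gene's own direction, in 26 against it, and in 2 it does both, for 2 genes facing apart. Detection was 44.0% of the 25, 65.4% of the 26 and both of the 2. The genes named here were chosen after the values were seen. A member at the Gas5 promoter reads the strand of Gas5, a noncoding host of small nucleolar RNAs, and opposes Zbtb37, which encodes a zinc finger protein. Another covers the start of Sgms2, which encodes a sphingomyelin synthase, on the opposite strand.
chr1:162965001-162966376, forward: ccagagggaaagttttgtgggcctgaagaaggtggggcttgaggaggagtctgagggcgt
chr3:131128972-131163308, forward: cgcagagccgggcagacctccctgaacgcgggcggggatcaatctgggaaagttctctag

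The comparison between P. gingivalis and saline asked whether oral administration of the bacterium altered the RNA of these loci in soleus. limma was fitted to all 33748 detected probes with adjustment over all of them, and differences are given as P. gingivalis minus saline on the log2 scale. In whole muscle, fewer cells that express a transcript and less of it in each cell cannot be told apart. At an adjusted p under 0.05, 2 of the 2319 detected intergenic locus probes (0.0862%) were called, both lower, against 0.163% of all probes called in either direction and 0.0859% called lower. The share was near the background, so the count says nothing particular about the class. No intergenic locus probe was called higher, against 0.077% of all probes. Under several other settings some were called higher, as given in the last section.

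**Figure D4:**
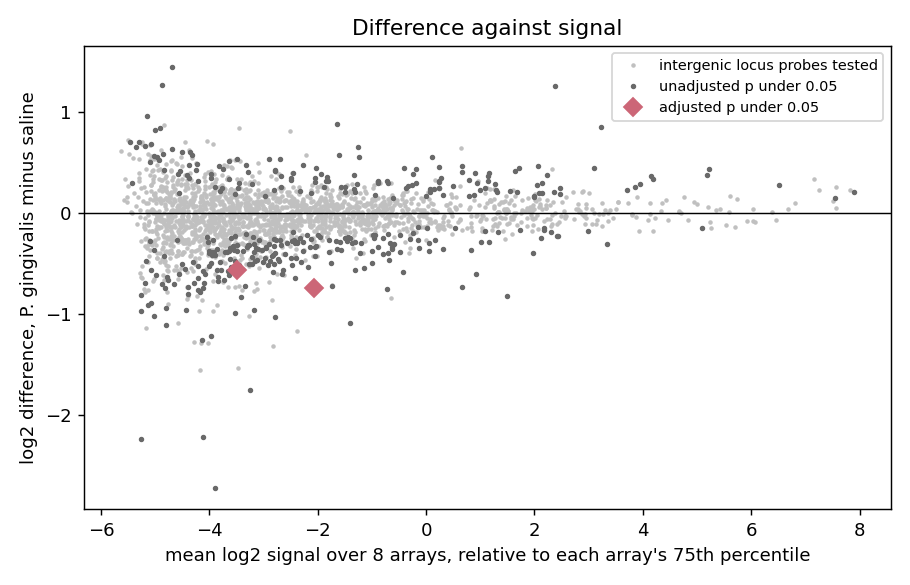
Log2 difference between P. gingivalis and saline arrays for each of the 2319 detected intergenic locus probes against its mean log2 signal over the 8 arrays, relative to each array's 75th percentile. Dark points have an unadjusted p under 0.05 (364 probes), and the 2 diamonds, both below 0, an adjusted p under 0.05.

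The first called probe reads the reverse strand of chr13:108653722-108654406, with its 60 bases ending at position 108653832. It read -1.59, -1.74, -1.80 and -1.68 on saline arrays and -2.43, -2.51, -2.31 and -2.54 on P. gingivalis arrays. The groups did not overlap, and all 4 P. gingivalis arrays were lower. It fell by 0.74 (SE 0.07, limma adjusted p = 0.0348), which is 1.67-fold. A longer interval, chr13:108548345-108679004, encloses it. There a reverse-strand probe over 100000 bases away was above background on all 8 arrays and differed by -0.14 (SE 0.10, adjusted p = 0.438), while the forward-strand probe was on none. The nearest probe for another transcript, 11492 bases away on the same strand, belongs to 9530027D23Rik and differed by -0.52 (SE 0.09, adjusted p = 0.0602).

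The second called probe reads the forward strand of chrX:98673447-98673874. It read -3.21, -3.15, -3.20 and -3.29 on saline arrays and -3.74, -3.92, -3.72 and -3.74 on P. gingivalis arrays. Again all 4 P. gingivalis arrays lay below all 4 saline arrays. It fell by 0.57 (SE 0.07, limma adjusted p = 0.0441), which is 1.48-fold. Of 7 other intergenic locus probes in its merged locus, 4 were detected, with differences from -0.30 to 0.41, and 3 of the 4 had the same sign. The nearest probe for another transcript, 25233 bases away, belongs to Itgb1bp2, which encodes melusin, a chaperone-like protein of striated muscle, and differed by 0.17 (SE 0.08, adjusted p = 0.248). Leaving out any single array ended both calls, with adjusted p from 0.0553 to 0.11 for the chromosome 13 probe and from 0.0585 to 0.124 for the chromosome X probe. The sizes stayed between -0.79 and -0.70 and between -0.59 and -0.52.

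At an unadjusted p under 0.05 stood 364 of the 2319 (15.7%), 148 higher and 216 lower, against 20.6% of all probes. Groups that did not overlap were seen for 101 probes higher in P. gingivalis (4.36%, against 8.73% of all probes) and for 130 lower (5.61%, against 5.35%). In all, 1052 of the 2319 (45.4%) were higher, and the median difference was -0.03, against 51.0% and 0.01 over all probes. This split depends on the scaling. When each array was centred on its median, 70.5% of the intergenic locus probes were higher with a median of 0.12, while the median of all probes moved to 0.15. After quantile normalization 58.3% were higher with a median of 0.04, equal to that of all probes.

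A difference of at least 1.5-fold was seen for 129 of the 2319 detected intergenic locus probes (5.56%), against 4.57% of all probes. No count of all probes by direction was made at this cut, so a count in 1 direction has no background share beside it. Of the 1795 intergenic locus probes above background on all 8 arrays, 49 were lower by at least 1.5-fold. Beside the called chromosome 13 probe, the 10 of these with the smallest p are described, none of which passed the test. The interval chr17:56687541-56694616 gave 2 of them, one per strand. Its forward probe read -2.85, -3.01, -3.24 and -2.95 in saline and -4.07, -3.76, -3.90 and -3.63 in P. gingivalis, a difference of -0.83 (SE 0.12, limma adjusted p = 0.0556). Its reverse probe read -1.19, -1.43, -1.58 and -1.28 in saline and -2.02, -2.30, -2.13 and -1.93 in P. gingivalis, a difference of -0.73 (SE 0.11, adjusted p = 0.0598). Neither probe's groups overlapped. Probes of a slightly longer interval with the same start differed by 0.12 (forward, adjusted p = 0.27) and -0.24 (reverse, adjusted p = 0.432). The nearest annotated probe, 5784 bases away, is for Safb2, which encodes a nuclear matrix protein that binds DNA and RNA.

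Largest in size among these 10 was a reverse-strand probe of chr18:61781410-61788685. It read -0.53, -1.21, -0.60 and -1.11 in saline and -2.08, -1.85, -1.65 and -2.24 in P. gingivalis, a difference of -1.09 (SE 0.19, limma adjusted p = 0.0607). All P. gingivalis arrays were lower. A second probe of the same name and a probe of chr18:61788148-61788307, also reverse, both differed by -0.34 (adjusted p = 0.149 and 0.171), and 3 forward-strand probes of the locus were not detected. The nearest annotated probe, 16842 bases away, is for Mir143hg, host transcript of microRNAs known from smooth muscle.

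The chr17:29380426-29380827 reverse probe read -4.01, -4.01, -3.89 and -4.07 in saline and -5.14, -4.67, -4.95 and -4.45 in P. gingivalis, a difference of -0.80 (SE 0.14, limma adjusted p = 0.0607). Its groups did not overlap, but 6 other detected probes of the locus differed by -0.43 to 0.46, with 3 of the 6 lower. The Sgms2 promoter member on chromosome 3, printed above, read -3.89, -3.96, -4.25 and -3.67 in saline and -5.01, -4.72, -4.39 and -4.44 in P. gingivalis, a difference of -0.70 (SE 0.17, adjusted p = 0.094). The second probe of its name differed by -0.47 (adjusted p = 0.17). Sgms2 itself differed by -0.06. In the remaining 5, at chr3:51784862-51793999, chr4:12050675-12066450, chr12:32781477-32808567, chr1:45800000-45834825 and chr4:124127144-124334840, differences ran from -0.83 to -0.60 with adjusted p from 0.0658 to 0.0956, and no groups overlapped.

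The largest differences in size, chosen after the values were seen, belonged to dim probes with wide spread that were not above background on every array. The reverse probe of chr3:145269449-145298239 read -2.42, -4.44, -2.85 and -0.40 in saline and -5.02, -4.89, -5.72 and -5.37 in P. gingivalis, a difference of -2.72 (SE 0.74, limma adjusted p = 0.11). A reverse probe of chr11:117835849-117842574 read -2.93, -3.91, -4.07 and -1.16 against -5.08, -4.77, -5.65 and -5.44, a difference of -2.22 (SE 0.61, adjusted p = 0.111). Saline array 4 was the highest for both, and neither probe's groups overlapped. The chromosome 11 name has 3 reverse probes, all detected, and their differences ran from -2.22 to 0.05. The forward probe of chr3:88028201-88031439 read -2.53, -5.14, -4.27 and -4.65 against -5.29, -6.11, -6.67 and -7.47, with saline array 1 far above the rest, a difference of -2.24 (SE 0.64, adjusted p = 0.118). It was above background on 3 saline arrays and 1 P. gingivalis array.

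Of the 1795 intergenic locus probes above background on all 8 arrays, 7 were higher on P. gingivalis arrays by at least 1.5-fold. None of the 7 passed the test, and no count of all probes by direction was made at this cut. The C- and G-rich forward probe of chr11:95573399-95587949, with 73.3% G and C, read 2.0, 2.07, 1.56 and 1.35 in saline and 3.96, 2.79, 2.60 and 2.66 in P. gingivalis. The groups did not overlap, and P. gingivalis array 1 was far above the other 3. The difference was 1.26 (SE 0.32, limma adjusted p = 0.10). The reverse probe of chr16:39984031-40081556 read 3.19, 2.80, 2.57 and 2.64 in saline and 4.14, 3.54, 3.69 and 3.24 in P. gingivalis, without overlap, a difference of 0.85 (SE 0.21, adjusted p = 0.0945). P. gingivalis array 1 was again the highest.

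Among the other 5, at chr1:74084292-74138492, chr3:85571525-85645700, chr4:94719930-94825776, chr5:34696192-34722842 and chr13:94198298-94198965, differences ran from 0.64 to 0.88 with adjusted p from 0.106 to 0.408. The groups overlapped in the last 3 of them. There a single P. gingivalis array carried most of the difference: array 4 on chromosome 4 at -0.59 against -2.95 to -2.28, array 1 on chromosome 5 at 2.18 against 0.23 to 0.74, and array 2 on chromosome 13 at -2.29 against -4.49 to -3.73. Other detected probes of these loci did not always go the same way: 0 of 2 at the chromosome 4 locus (-0.48 and -0.09), 2 of 7 at the chromosome 13 locus (-0.35 to 0.24), 2 of 3 on chromosome 5 (-0.12 to 0.21), 2 of 3 on chromosome 3 (-0.33 to 0.26) and 1 of 2 on chromosome 1 (-0.04 and 0.31) were higher.

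G- and C-rich probes as a whole varied with the array. Over the 72 detected intergenic locus probes with more than 65% G and C, the median deviation from each probe's own mean was 0.18, 0.03, -0.12 and -0.17 on P. gingivalis arrays 1 to 4 and 0.06, 0.06, -0.02 and -0.11 on saline arrays 1 to 4. Over the 460 with at most 40% it lay between -0.04 and 0.01. The part of this in single differences was not tested.

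The smallest p-values among the higher probes belonged to smaller differences with tight replicates. The reverse probe of chr2:27394711-27402186 read -3.46, -3.46, -3.67 and -3.63 in saline and -3.01, -3.15, -3.08 and -3.10 in P. gingivalis, a difference of 0.47 (SE 0.07, limma adjusted p = 0.0588). It lies against the promoter of the noncoding gene model Gm13421. The forward probe of chr17:86092322-86093123 read 0.99, 0.95, 1.01 and 0.92 against 1.5, 1.33, 1.32 and 1.30, a difference of 0.39 (SE 0.06, adjusted p = 0.0598). Both showed every P. gingivalis array above every saline array.

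The same held for 3 more. The reverse probe of chr12:119825125-119850750 read 1.44, 1.55, 1.33 and 1.42 in saline and 1.76, 1.92, 1.89 and 1.82 in P. gingivalis, a difference of 0.41 (SE 0.07, limma adjusted p = 0.0598). That of chr4:123572090-123581365 read 2.98, 2.88, 2.84 and 2.80 against 3.47, 3.31, 3.27 and 3.23, a difference of 0.45 (SE 0.07, adjusted p = 0.0598). A second probe of that name, above background on all 8 arrays, differed by -0.09 (SE 0.22, adjusted p = 0.839), and the 1 other probe at the chr12 locus was not detected. The forward probe of chr13:64381475-64415350 read -1.35, -1.76, -1.46 and -1.50 against -1.04, -0.88, -0.96 and -0.97, a difference of 0.55 (SE 0.09, adjusted p = 0.0602).

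**Figure D5:**
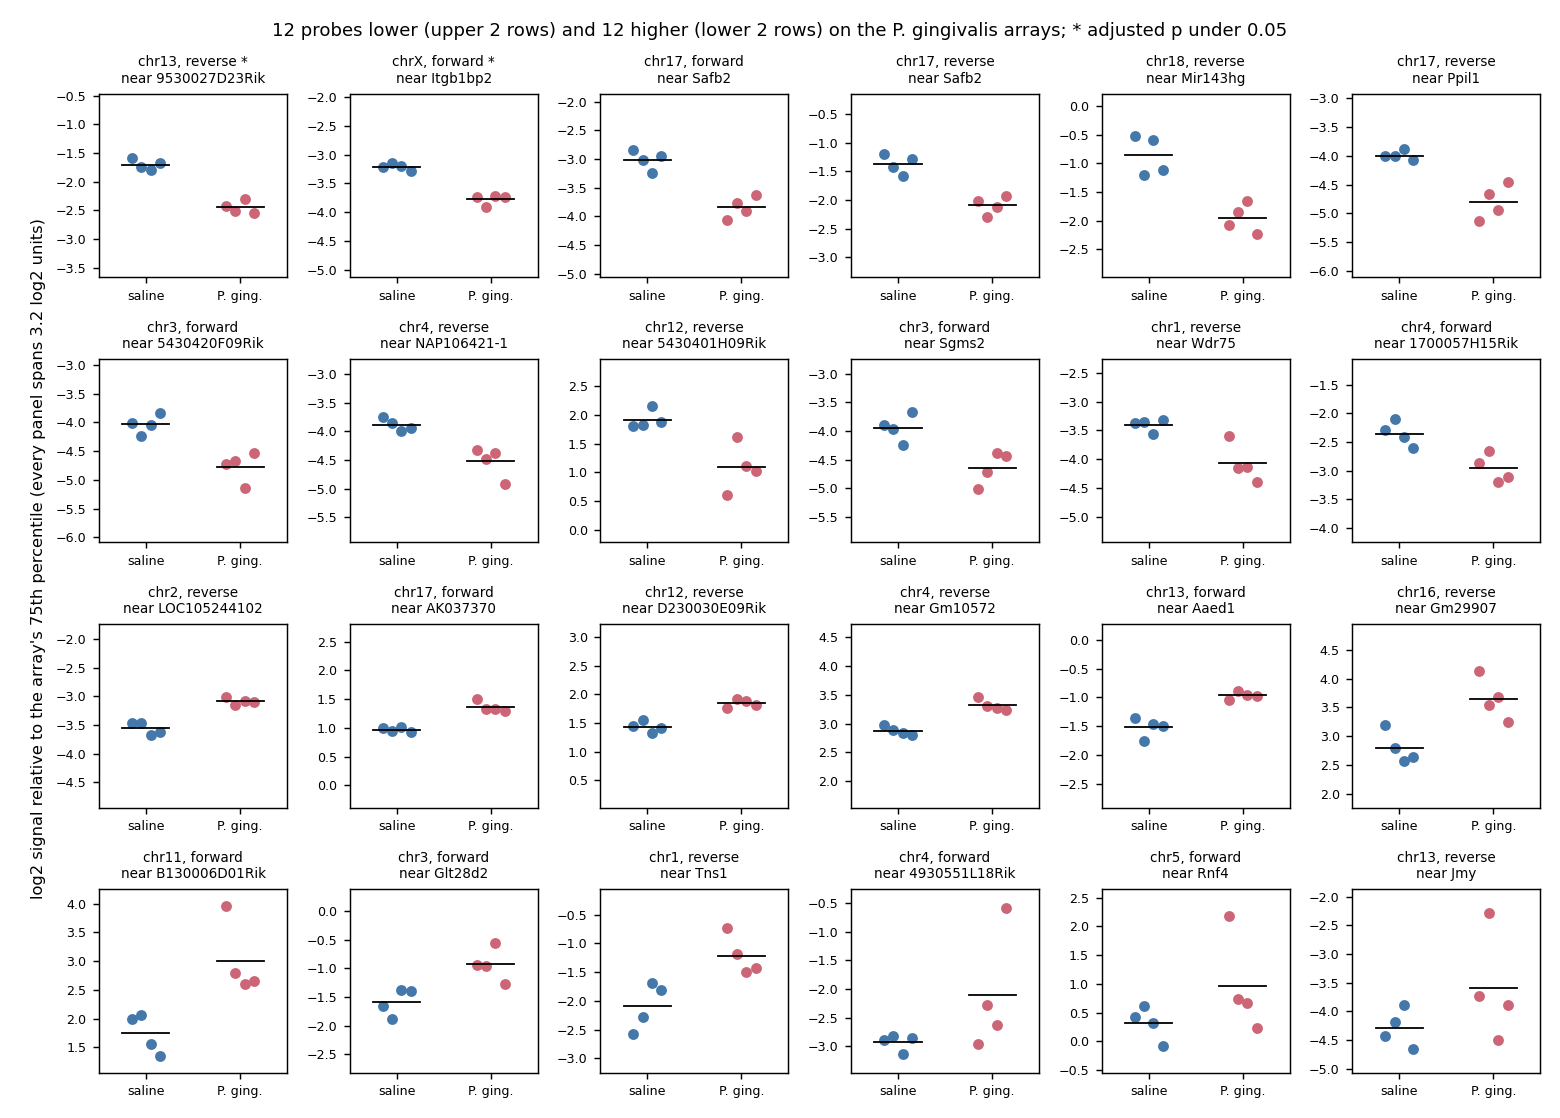
Log2 signal relative to the array's 75th percentile for the 12 lower and 12 higher intergenic locus probes on the 4 saline (blue) and 4 P. gingivalis (red) arrays, one panel per probe, labelled by chromosome, strand and nearest annotated probe; horizontal bars are group means and every panel spans the same height. The 2 starred probes passed the test, and in the last 3 panels the groups overlap.

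Well above background on all 4 P. gingivalis arrays and on no saline array were 33 intergenic locus probes (0.742%), against 0.698% of all probes, and the reverse was seen for none, against 0.0124% of all probes. All 33 passed the filter through the P. gingivalis arrays alone. For 15 of the 33 the P. gingivalis mean exceeded the saline detection limit, taken per array as the higher of the lowest signal well above background and the probe's own, and no bound reached 2-fold. The greatest was for the reverse probe of chr3:10081893-10094218, which read -5.29, -5.62, -5.29 and -5.41 in saline, not well above background, and -2.96, -4.14, -3.95 and -4.80 in P. gingivalis. Its P. gingivalis mean was 1.85-fold above the saline limit (limma difference 1.44, SE 0.34, adjusted p = 0.0878). These bounds make no allowance for the scatter between arrays. Another of the 33 was the reverse probe of chr10:62267317-62269871, near the DNA demethylase gene Tet1. Its P. gingivalis mean was 1.17-fold above the saline limit, but its groups overlapped (limma adjusted p = 0.154).

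Of the 10 brightest probes of the class, 9 are described and 1 is not reported here. Differences among the 9 were small, but their spread was not always so: the forward probe of chr14:78924115-78938125 ran from 7.48 to 8.64, highest on P. gingivalis array 1. The forward probe of chr4:141527564-141547339 read 7.81, 7.72, 7.84 and 7.80 in saline and 7.88, 8.10, 8.03 and 7.98 in P. gingivalis, without overlap, a difference of 0.20 (SE 0.07, limma adjusted p = 0.148). The reverse probe of chr17:17481706-17482457 also did not overlap, at 7.44, 7.43, 7.55 and 7.48 against 7.58, 7.66, 7.61 and 7.65, a difference of 0.15 (SE 0.05, adjusted p = 0.175). In the other 7 the groups overlapped, with differences from 0.03 to 0.25. Among these 7, the reverse probes of chr4:33364774-33364898 and chr7:108209996-108216032 share 36 and 28 bases with same-strand probes for other transcripts. Their signal cannot be assigned to the intergenic locus alone. All 9 differences were above 0 as scaled here, but quantile normalization turned 2 of them, at chr2:168804720-168854970 to -0.06 and at the forward strand of chr12:73838608-73862621 to -0.00.

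Where both strands of an interval were above background on all 8 arrays, the strands could differ together or apart. At chr10:81680941-81704964, which holds a Zfp938 probe, the forward probe read 6.34, 6.25, 6.41 and 6.51 in saline and 6.59, 6.68, 6.65 and 6.68 in P. gingivalis. The reverse probe read -0.45, -0.60, -0.43 and -0.24 against -0.17, 0.15, -0.09 and -0.08. Neither overlapped, with differences of 0.27 (SE 0.07, limma adjusted p = 0.101) and 0.38 (SE 0.10, adjusted p = 0.103). At chr7:108209996-108216032 the reverse probe differed by 0.10 and 2 forward probes by -0.12 and -0.09, all with overlapping groups. That reverse probe is the one that shares 28 bases with the Rps29 probe, so its signal cannot be assigned to the interval alone.

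Several probes of one name often disagreed. Of 316 names with 2 or more probes, all were detected for 130, none for 80, and only some for 106. Among 143 names with at least 2 detected probes, the differences shared a sign for 79 (55.2%), and their median range was 0.22, against a median SE of 0.14 for a single probe. The locus with the most probes, chr18:35967933-35986564, had 11 of 16 detected, 6 higher and 5 lower, from -0.40 to 0.53. The next, chr13:94180737-94203935 between Homer1 and Jmy, had 8 of 15 detected, 3 higher and 5 lower, from -0.35 to 0.68. No probe of the 6 largest loci was called.

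Printing in 10 spots per array measured the technical spread of 5 intergenic locus probes. The SD between the 10 spots of a probe on 1 array was 0.0267 to 0.135, and the SD between replicate arrays 0.02 to 0.199. The widest of the latter, at chr17:39983902-39985688, came from 3.31, 3.21, 3.34 and 2.94 in saline and 3.43, 3.46, 3.25 and 3.03 in P. gingivalis, a difference of 0.09 (SE 0.13, limma adjusted p = 0.706). For chr17:48068261-48087905 the arrays read 5.25, 5.34, 5.29 and 5.30 against 5.21, 5.19, 5.24 and 5.16. The remaining 3 differed by at most 0.02 in either direction.

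Known noncoding RNAs gave landmarks. Within 5000 bases of a probe for one of them lay 26 intergenic locus probes, at 9 genes, of which 17 were detected. None was called by limma, against 0.163% of all probes. Of the 17, 5 had an unadjusted p under 0.05, against 20.6% of all probes, but 17 are too few to read a share from. At Pvt1, a noncoding gene beside Myc, 3 of 5 were detected, all on its own strand, with differences of -0.56, -0.41 and -0.23. The one at -0.41 (SE 0.10, limma adjusted p = 0.0864) read -3.57, -3.64, -3.83 and -3.68 in saline and -3.89, -4.05, -4.19 and -4.26 in P. gingivalis, without overlap, and shares 28 bases with a Pvt1 probe that differed by -0.23. The brightest probe of Pvt1 differed by -0.06.

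At Neat1, the scaffold of nuclear paraspeckles, 3 forward-strand members oppose the gene. The member at chr19:5841103-5845579 read -1.27, -1.22, -1.08 and -1.28 in saline and -1.51, -1.44, -1.29 and -1.79 in P. gingivalis, a difference of -0.29 (SE 0.11, limma adjusted p = 0.187), while the 2 at chr19:5771425-5848475 differed by 0.20 and 0.00. Neat1 differed by 0.14. At Gas5 the member opposing the gene, chr1:162965309-162970704, read -2.60, -2.56, -2.76 and -2.61 against -2.98, -2.81, -2.83 and -3.25, without overlap, a difference of -0.33 (SE 0.11, adjusted p = 0.145), and the promoter member printed above differed by -0.42 (SE 0.21, adjusted p = 0.30). Another member, on the strand of Gas5, differed by 0.09. Gas5 itself differed by 0.07.

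At the imprinted genes Rian and Mirg 1 of 4 and 1 of 2 members were detected, with differences of -0.05 and 0.02. Rian itself differed by 0.16 and Mirg by -0.52. At Airn, which silences Igf2r in imprinting, both members were detected, at 0.09 and 0.17, and at Tug1 both, at -0.01 and 0.25. Airn itself differed by -0.24 and Tug1 by 0.23. The members at Snhg3 and Snhg14, hosts of small nucleolar RNAs, differed by 0.23 and 0.22, each 1 detected probe. Snhg3 itself differed by 0.08 and Snhg14 by 0.13. Near muscle regulators, 4 members at 3 genes were all detected. By limma none was called and 0 had an unadjusted p under 0.05, against 0.163% and 20.6% of all probes, but 4 members are too few to read a share from. The 2 near Nfil3, a circadian and metabolic repressor, differed by 0.03 and 0.20, against 0.83 for Nfil3 (adjusted p = 0.072). Single members near Klf15, a regulator of lipid use in muscle, and Pax7, the satellite cell factor, differed by -0.21 and -0.37. Klf15 itself differed by 0.39 and Pax7 by -0.13.

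The nearest annotated probe was set beside each detected member, over the same 8 arrays. Where that probe lay inside the interval on the same strand, 117 of 209 (56.0%) had the same sign and the differences correlated at 0.28 (Pearson) across pairs, and on the opposite strand 108 of 214 (50.5%), at 0.05. From 1 to 5000 bases away the shares were 51.9% of 214 and 43.2% of 118, with correlations of 0.08 and -0.15. These describe pairs measured in the same libraries, and no test was made.

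Genes that mark, bind or degrade such RNAs were compared as a list of 45, all of them kept. By limma none was called and 8 had an unadjusted p under 0.05, against 0.163% and 20.6% of all probes. Of the 45, 24 were higher and 21 lower, and the median difference was 0.01, the same as over all probes. The nearest to the threshold were Ints4, a subunit of the Integrator complex that ends short transcripts, at 0.34 (SE 0.06, limma adjusted p = 0.0602), and Hnrnpk, which binds nuclear noncoding RNA, at 0.33 (SE 0.06, adjusted p = 0.0615). All 14 genes of the exosome list were kept, with a median of 0.07.

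All 7 markers of slow fibres were detected, with list means of 8.43 to 8.54 in saline and 8.58 to 8.68 in P. gingivalis. Each of the 7 had a higher mean in P. gingivalis, with a median difference of 0.14. By limma none was called and 3 had an unadjusted p under 0.05, against 0.163% and 20.6% of all probes. All 8 listed markers of fast fibres were detected, and they too had a higher mean in P. gingivalis, with a median difference of 0.15. None was called by limma and 1 had an unadjusted p under 0.05, against 0.163% and 20.6% of all probes. That was Atp2a1, at 0.5 (SE 0.07, limma adjusted p = 0.0529). The spread of these markers between arrays was uneven. Myh1 ranged from 7.67 to 8.16, Mylpf from 7.87 to 8.31, Tnnt3 from 9.32 to 9.71 and Tnni2 from 9.31 to 9.68. Actn3, from 1.13 to 4.64, and Pvalb varied more, and their groups overlapped. Myh4, the fastest myosin, read 1.95, 7.63, 7.70 and 4.98 in saline and 6.76, 7.66, 4.03 and 7.11 in P. gingivalis. Without the array of each group lowest in Myh4, no probe of any class was called. Leaving out any single array, whatever its Myh4, already left between 2 and 10 probes of all classes called, against 55 with all 8 arrays. Among 6 neutrophil genes 3 were kept, and their list mean ranged from -3.00 to -0.75 in saline and from -3.35 to -2.94 in P. gingivalis. Red blood cell genes ranged from 1.74 to 3.77 and from 3.07 to 3.91. The part of these in the differences above was not tested.

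The authors' deposited table holds 2191 of the named intergenic probes, and 24 of them (1.1%) have an adjusted p under 0.05 there, against 1.53% of all its rows. In its columns named for P. gingivalis, 7 of the 24 were higher and 17 lower. All 24 have the opposite sign here. Each of its 8 columns matched best the array of the other group with the same number, with correlations of 0.923 to 0.975 over 1937 probes after centring, against -0.235 to 0.017 for the array of its own name. Groups here follow the sample records, and every sign would turn if the column names were the right ones. In the authors' deposited table the chromosome 13 probe has a log2 fold change of 0.53 (adjusted p = 0.0375) and the chromosome X probe 0.29 (adjusted p = 0.0726).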

How the data were processed

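Soleus RNA from 8 mouse samples (4 per group) was hybridised to 1-colour Agilent arrays after Cy3 labelling of 200 ng of total RNA. The deposited intensity values, per the file headers, are scanner signals from Agilent Feature Extraction 11.0.1.1 (11.1 per the submitters' processing notes), background-subtracted, with probe positions on mm9. The authors' deposited table holds log2 values, log2 fold changes and p-values; its steps are not given in the sources used here, and its values serve only for the comparison of columns. Total counts do not apply to arrays; 8 arrays limit the precision.

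Processed signals were converted to log2 and each array's 75th percentile over non-control spots was subtracted. Spots with outlier flags were left out, so 9 detected members were fitted on fewer than 8 arrays, and spots of 1 probe were averaged. Probes well above background on 4 or more arrays (33748) were tested with limma 3.58.1 in R 4.3.3 (lmFit, eBayes, two-sided, Benjamini-Hochberg adjustment over all). The fit was checked on simulated data. Members, lists and named probes were chosen with earlier results of these data known. Named members were the called ones, up to 12 per direction filled first by those differing at least 1.5-fold and then by smallest p among probes on all 8 arrays, the 10 brightest, up to 10 seen in 1 group only, strand pairs, and those beside listed genes. A few named members are not reported here. No column of per-sample values lacked a sample. RefSeq tables (GRCm38.p6) served for sequence matches alone. Alternatives covered background correction, scaling, filter, probe choice, variance model, array weights, replicate block and single arrays left out.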

Additional observations from a re-analysis of the deposited data

Results flagged for a closer look

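Within groups of 4 arrays, a single array stood apart from the other 3 (its gap to the nearest divided by the range was above Dixon's critical value) in 5 of 142 groups of named probes and array totals, 3.52%; chance alone flags about 1 in 20. For the called probe at chrX:98673447-98673874, P. gingivalis array 2 read -3.92 against -3.74 to -3.72. For chr11:95573399-95587949, P. gingivalis array 1 read 3.96 against 2.60 to 2.79. For chr1:63168439-63172297, P. gingivalis array 3 read -5.14 against -4.63 to -4.59. For chr6:90436386-90469399, near Klf15, saline array 1 read -3.15 against -3.42 to -3.37. For the forward probe of chr12:73838608-73862621, saline array 4 read 6.51 against 6.72 to 6.73.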

How the results depend on the processing

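The count of called intergenic locus probes, 2 as reported and 2 with 1 probe per name, was 12 with array weights, 29 among probes above background on all 8 arrays, 38 with quantile normalization, 40 with a trended robust variance, 43 with normexp and 155 with median centring; without a filter it was 546 of 4449. The share of all probes called rose beside it, to 0.599%, 1.88%, 2.08%, 3.07%, 2.6%, 11.6% and 14.9% in the same order. It was 0 with the replicate block, where 439 had an unadjusted p under 0.05, 0 without the 2 arrays lowest in Myh4 (chosen after seeing the data; 303 unadjusted), and 0 to 0 with any single array left out (317 to 384 unadjusted). Of the called, 145 of 155 were higher with median centring and 497 of 546 lower without a filter. Higher were 5 of 12 with array weights, 14 of 29 among probes on all 8 arrays and 27 of 38 with quantile normalization. With the trended robust variance 26 of 40 were higher, and with normexp 25 of 43. Calls over all probes were not counted by direction in these settings. The count at an unadjusted p under 0.05 was 364 as reported and 1074 without a filter. The median difference was -0.03 as reported, 0.12 with median centring, 0.04 with quantile normalization, -0.14 without a filter and between -0.05 and -0.01 with single arrays left out. Strand pairs detected on both strands numbered 312, and 480 when 1 array sufficed. Deviations of same-numbered arrays correlated at 0.07, -0.07, -0.11 and 0.25, and 2 of 4 saline arrays correlated best with their own number, so the numbers were not taken as pairs, although G- and C-rich probes were lowest on array 4 in both groups. For the 2 called probes all 18 alternatives kept the direction and 8 kept the call. Of 1238 single values recomputed for 70 named probes, 40 changed sign, 20 lost and 94 gained a call. None of the sign changes was of a called probe. With median centring the 2 forward probes of chr7:108209996-108216032 turned to 0.03 and 0.06, and the reverse probe of chr6:83368261-83407280 to 0.12. It also turned the members at Rian to 0.10, Tug1 to 0.14 and Neat1 to 0.14. Quantile normalization turned chr2:168804720-168854970 to -0.06, the forward strand of chr12:73838608-73862621 to -0.00, Rian to 0.12 and Tug1 to 0.00. Normexp turned chr6:83368261-83407280 to 0.02 and Mirg to -0.05. Array weights turned Tug1 to 0.01 and Neat1 to 0.05. Leaving out the Myh4-low arrays turned Mirg to -0.08. With single arrays left out, these probes changed sign within ranges of -0.01 to 0.35 for chr14:78924115-78938125, -0.05 to 0.20 for Gas5 (chr1:162965309-162970704), -0.19 to 0.48 for Snhg3, -0.02 to 0.08 for chr12:73838608-73862621, -0.06 to 0.01 for chr6:83368261-83407280, -0.17 to 0.06 for Rian, -0.07 to 0.14 for Nfil3, -0.05 to 0.04 for Tug1, -0.12 to 0.15 for Mirg and -0.13 to 0.16 for Neat1. Dim probes near background and the shared slide side limit these data. The cause of these shifts was not tested.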
